A study of Homo sapiens with 12 samples.

Results

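The 22Rv-1 line is a human prostate cancer cell line that makes the receptor splice variant ARv7. Chosen by the line and the lentivirus named in the sample titles, 6 of the 12 samples of the series are described here. They comprise 3 libraries of cells infected with lentivirus for lv-shARv7, a short hairpin RNA (shRNA) against ARv7 (ARv7 depletion in the labels), and 3 libraries of cells infected with the control lentivirus, lv-shcontrol. These are called depleted and control libraries below. Both groups grew in RPMI 1640 medium with fetal bovine serum, in dishes plated in triplicate, and RNA was taken with TRIzol. The other 6 samples are C4-2 prostate cancer cells with a control lentivirus (lv-control) or one for ARv7 (lv-ARv7). The number of hairpins, the time after infection and whether the cells were clones are not stated by the labels, so a change due to the hairpin itself cannot be told apart from one due to the loss of ARv7. The labels do not say that the dishes of a group came from separate infections, so p-values measure only the spread between dishes.

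In the prostate luminal cell, androgen switches on secretory and metabolic genes through a steroid receptor that binds DNA. ARv7 is a splice variant made with a cryptic exon. The protein keeps the activation and DNA-binding domains but lacks the ligand-binding domain, so it acts without androgen and cannot be blocked by drugs that occupy that domain. It is known from prostate tumours that grow on under castration and antiandrogen treatment. The series title places it in the DNA damage response, and the values below follow it through the other programmes of the cell.

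Total counts in the 6 libraries ran from 12863379 to 14632128, and 13459 of 19973 genes had enough counts to be tested. The first principal component held 76.5% of the variance and separated the 2 groups. The labelled cell type carried its markers: the summed level of 10 luminal markers was 4140 to 4152 CPM (total counts scaled to the same library size) in the control and 3700 to 3768 CPM in the depleted libraries. Markers of basal cells summed to 7.24 to 9.36 CPM and then 4.59 to 7.09 CPM, and those of endothelium to 2.73 to 5.43 CPM and then 1.94 to 3.97 CPM, with KDR and CDH5 at 0 counts. CPM values in the text are scaled by edgeR's TMM factors, are given as mean ± SD over 3 libraries, and compare 1 gene across libraries, not genes with each other. Adjusted p-values are from edgeR's quasi-likelihood test with Benjamini-Hochberg adjustment over all 13459 genes, and a gene is said to rise, fall or change where this was under 0.05. Because many small changes passed, counts are also given for genes that changed by more than 1.2-fold (edgeR's glmTreat, adjusted p under 0.05).

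The table counts reads per gene and not per splice variant, so the depth of ARv7 depletion cannot be read from it. In a bulk library, fewer cells that express a gene and less RNA per cell cannot be told apart.

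In the depleted libraries close to as many genes rose as fell, but changes of 2-fold or more were mostly rises. Of 13459 genes tested, 6467 changed (48.0%), 3220 of them higher (23.9%) and 3247 lower (24.1%). At 2-fold or more 1029 genes changed (7.65%), 754 of them higher (5.6%) and 275 lower (2.04%). Past 1.2-fold, 2862 genes changed (21.3%), 1581 higher (11.7%) and 1281 lower (9.52%). In several gene lists below, the share of members that changed was no larger than the 48.0% of all genes. These were ribosome biogenesis (26.19%), polyamine genes (33.33%), the BCL2 family (37.5%), nuclear respiratory subunits (39.02%) and the MYC network (41.67%). Others were metallothioneins and zinc transporters (42.86%), splicing factors (46%), steroid synthesis (46.15%), interferon-stimulated genes (46.43%) and antigen presentation (48%, all rises). Close above the share of all genes were glycosylation enzymes and mucins (51.22%), the Notch pathway (52.17%), integrins (52.63%) and cholesterol genes (52.94%). The WNT pathway (53.85%), YAP readouts (54.55%) and autophagy and lysosome genes (55.56%) came next. The median log2 change of all genes was 0.01, and 90% of genes lay between -0.65 and 1.1. The side on which a gene changed went with its level. Among 430 genes with a mean under 1 CPM, 112 rose and 15 fell, whereas among 2453 genes over 100 CPM, 554 rose and 950 fell. At low levels a gene that changed passes the count filter mainly through the group where it is high. The low-level counts, and the 2-fold counts that include them, therefore depend on the filter. With a mean of at least 5 CPM, changes of 2-fold or more were 284 rises and 165 falls. With total counts in place of TMM factors, 3803 genes rose and 2695 fell, so the share of rises among the calls moved from 49.8% to 58.5%, and with limma on log2(FPKM + 1) it was 56.4%.

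**Figure D1:**
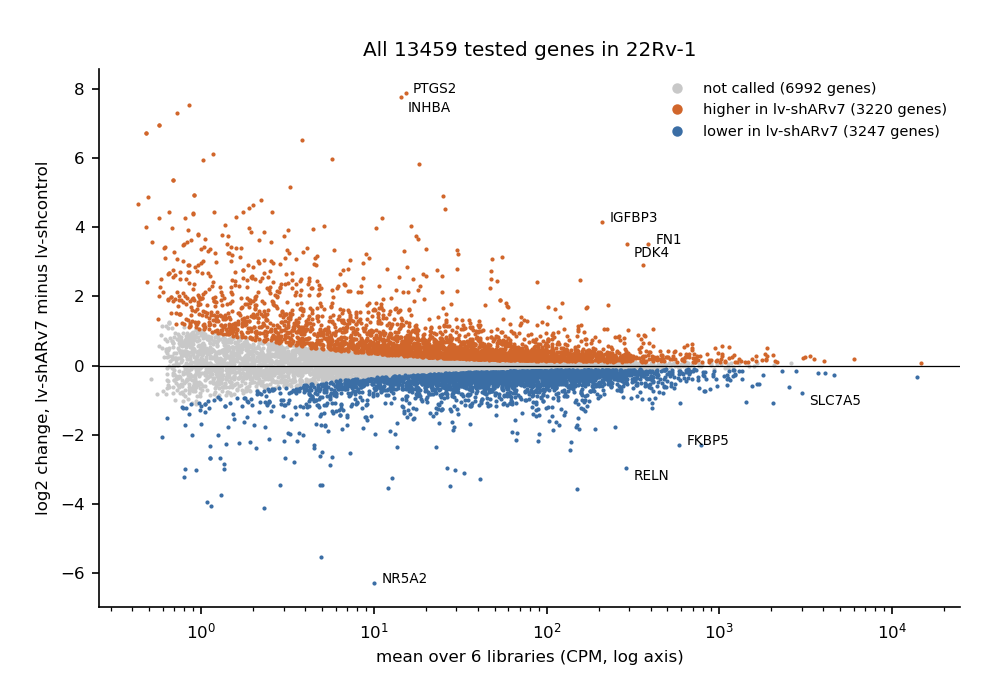
Each point is 1 of the 13459 tested genes, with its mean level over the 6 libraries in CPM on a log axis and its log2 change in depleted against control 22Rv-1 cells on the vertical axis. The spread of the changes narrows towards high levels, and of 430 genes under 1 CPM 112 rose and 15 fell. At such levels a changed gene passes the count filter mainly through the group where it is high.

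The 10 largest rises were taken by a rule that asked for a mean of at least 5 CPM and no overlap between the groups. Of all tested genes 53.7% had no overlap, so groups that lie apart are not a result for genes chosen this way. The first was PTGS2, which makes the inducible cyclooxygenase of prostaglandin synthesis. It was measured at 0.142, 0.155 and 0.0694 CPM in the control libraries and 33, 30.4 and 28.1 CPM in the depleted libraries. With 5 counts in all control and 1234 in all depleted libraries, it was 261-fold higher by total counts (exact 95% counting interval 111 to 804; edgeR adjusted p = 5.85e-42). INHBA, the activin A subunit, was close behind at 0.0709, 0.31 and 0 CPM in the control libraries and 28.1, 31.5 and 25.9 CPM in the depleted libraries, 5 counts against 1152, or 243-fold higher (104 to 750). Both genes were near the detection limit in every control library and well measured in every depleted one.

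LPL, the lipase that frees fatty acids from lipoproteins, rose from 0.628 ± 0.246 to 36 ± 1.1 CPM (log2 change 5.82). The protocadherin PCDH19 rose from 0.179 ± 0.25 to 11.2 ± 2.59 CPM, and the matrix-binding BMP modulator SMOC1 from 1.63 ± 0.662 to 48.6 ± 2.41 CPM. In all 3 genes the lowest depleted library stood far above the highest control one. SEMA3D, a secreted semaphorin, rose from 2.13 ± 0.309 to 49.4 ± 2.62 CPM and CYFIP2, part of the WAVE actin complex, from 1.09 ± 0.131 to 21.2 ± 0.955 CPM. The IGF carrier IGFBP3 rose from 22.1 ± 1.44 to 398 ± 5.96 CPM, the cochaperone DNAJA4 from 0.589 ± 0.253 to 9.68 ± 1.56 CPM and the cAMP-degrading enzyme PDE4B from 1.88 ± 0.25 to 30.8 ± 2.14 CPM. Log2 changes of these 5 lay between 4.03 and 4.53.

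By the same rule the largest fall was that of NR5A2, the orphan nuclear receptor LRH-1, which controls bile acid and steroid genes. It was measured at 20.2, 18.3 and 21.2 CPM in the control libraries and 0.226, 0.306 and 0.212 CPM in the depleted libraries (log2 change -6.28, SE 0.25, edgeR adjusted p = 2.36e-35). TMEFF2, a transmembrane protein of prostate epithelium, fell from 277 ± 2.34 to 23.4 ± 0.928 CPM (log2 change -3.57), and the calcium-activated potassium channel gene KCNMA1 from 22.2 ± 1.99 to 1.9 ± 0.436 CPM. Both genes, like the other falls given here, were chosen with the groups apart. CHRNA2, a nicotinic receptor subunit, fell from 50.7 ± 2.99 to 4.56 ± 1.02 CPM, and the organic cation carrier SLC22A3 from 9.2 ± 1.23 to 0.836 ± 0.601 CPM. The amino acid carrier SLC38A4 fell from 74.9 ± 6.39 to 7.71 ± 1.41 CPM and the small proteoglycan LUM from 22.9 ± 1.82 to 2.4 ± 0.679 CPM. GPM6A, a neuronal membrane glycoprotein, fell from 59.2 ± 5.1 to 6.89 ± 0.566 CPM, CRISPLD1 from 52.3 ± 3.97 to 6.42 ± 1.23 CPM and the transcription factor MAF from 47.1 ± 1.62 to 5.98 ± 0.746 CPM. None of these 20 calls was lost under any alternative processing that was run.

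**Figure D2:**
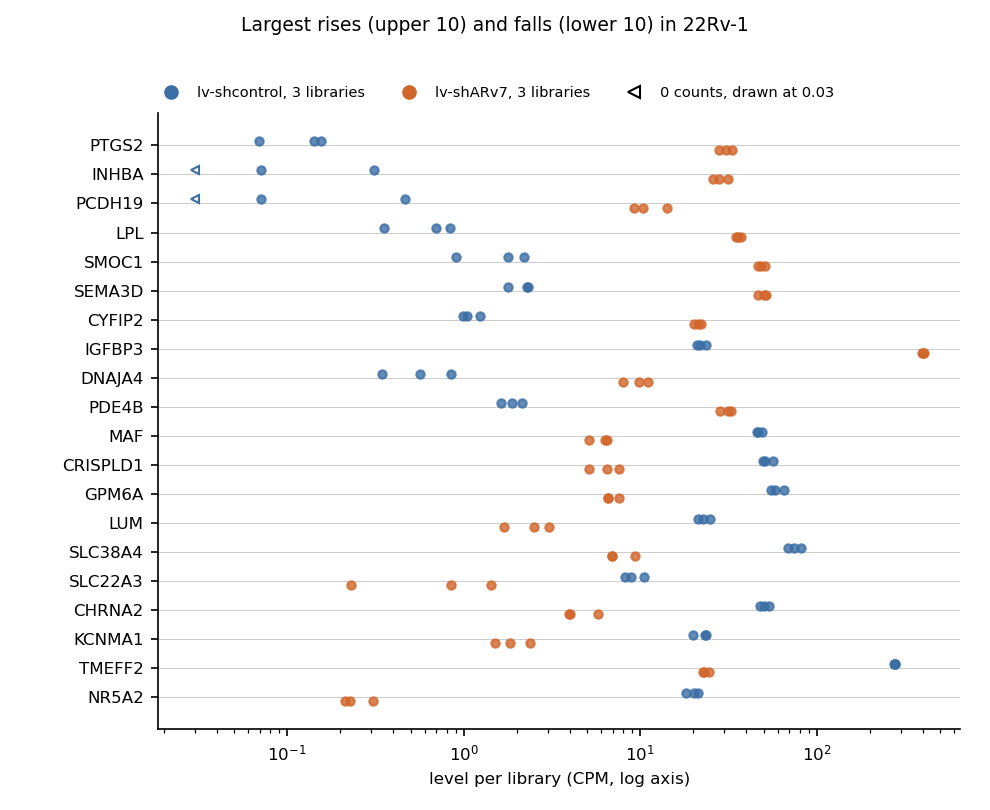
Level in CPM (log axis) of the 10 largest rises and 10 largest falls, with 1 point per library, 3 control and 3 depleted. The 20 genes were chosen with the 2 groups apart. PTGS2 moves from 0.0694 to 0.155 CPM in control libraries up to 28.1 to 33.0 CPM.

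A wider set of genes crossed from under 1 CPM in all 3 control libraries to at least 5 CPM in all 3 depleted ones. There were 14: PTGS2, INHBA, PCDH19, LPL and DNAJA4 from above, and PDE10A, SCD5, BARX1, CGA, NECTIN4, RASAL1, CDH12, AGTR1 and HOPX. The phosphodiesterase PDE10A went from 0.0731 ± 0.071 to 7.59 ± 1.82 CPM, SCD5, a stearoyl-CoA desaturase, from 0.17 ± 0.0871 to 6.36 ± 1.01 CPM, and the homeobox gene BARX1 from 0.528 ± 0.145 to 8.37 ± 1.77 CPM. CGA encodes the alpha chain shared by the glycoprotein hormones and rose from 0.391 ± 0.135 to 5.99 ± 0.917 CPM. AGTR1, the angiotensin II receptor, rose from 0.742 ± 0.191 to 6.36 ± 1.08 CPM. In the other direction only NR5A2 and GHRHR, the receptor for growth hormone-releasing hormone, crossed the same limits, GHRHR at 10.5, 9.53 and 9.02 to 0.377, 0.0765 and 0.141 CPM.

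Genes that androgen induces in prostate cells fell more often than they rose. Of 36 tested, 24 fell and 9 rose (1.2-fold: 22 and 4), with a median log2 change of -0.56 beside 0.01 for all genes. FKBP5, a cochaperone of steroid receptors and a direct target of androgen signalling, was measured at 943, 949.8 and 1017 CPM in the control libraries and 202, 197 and 198 CPM in the depleted libraries. The 3 depleted libraries lay close together, 4.87-fold under the control mean (log2 change -2.28, SE 0.045, edgeR adjusted p = 4.68e-56). HPGD, which inactivates prostaglandins, fell from 108 ± 6.25 to 28.1 ± 1.96 CPM, OTULINL from 99.9 ± 5.68 to 26.6 ± 1.35 CPM and TMPRSS2, the androgen-driven surface protease, from 50.3 ± 2.08 to 22.6 ± 0.826 CPM.

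The kallikreins went the other way. KLK3, which encodes prostate-specific antigen, was measured at 16.4, 16 and 14.1 CPM in the control libraries and 22.5, 22.8 and 27.8 CPM in the depleted libraries, without overlap (log2 change 0.65, SE 0.11, edgeR adjusted p = 5.43e-07). KLK2 rose from 52 ± 4.81 to 65.3 ± 1.28 CPM and KLK15 from 2.57 ± 0.511 to 5.12 ± 1.32 CPM, while KLK4 fell, with a log2 change of -0.12, a call lost in 6 alternatives (edgeR adjusted p = 0.155 under total counts). KLK2 and KLK3 are close paralogs and may share reads, and the rise of KLK2 was not past 1.2-fold (edgeR adjusted p = 0.226). The other risers of the list were CENPN (22.2 ± 1.84 to 38 ± 1.36 CPM), PDIA5 (29.7 ± 3.29 to 40.4 ± 2.59 CPM), UAP1, TSC22D3, IQGAP2 and STEAP4. UAP1 and TSC22D3 were not past 1.2-fold, and the calls for TSC22D3, IQGAP2 and STEAP4 were also lost without single libraries, with an edgeR adjusted p of 0.163 for TSC22D3 without depleted replicate 1 and of 0.224 for IQGAP2 without control replicate 1.

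Of 10 genes reported as induced by ARv7, 6 fell and 1 rose (2 under total counts), with a median of -0.26. SLC3A2, the heavy chain of the large amino acid carrier, fell from 1172 ± 54.4 to 776 ± 8.03 CPM, BUB1B from 73.1 ± 3.89 to 50.5 ± 2.84 CPM and CDC20 from 69.2 ± 2.32 to 50.3 ± 2.63 CPM, both of them spindle checkpoint genes. EDN2, an endothelin, rose from 7.39 ± 1.99 to 11.7 ± 2.37 CPM. In the list of 15 glucocorticoid-induced genes, which includes FKBP5, 7 fell and 3 rose. ZBTB16 fell from 239 ± 7.45 to 95.8 ± 4.25 CPM and the metallothionein MT2A from 21 ± 2.47 to 5.33 ± 0.644 CPM, whereas the phosphatase DUSP1 rose from 17.8 ± 2.04 to 31.2 ± 1.95 CPM and TFCP2L1 from 3.84 ± 0.147 to 9.19 ± 1.45 CPM, beside TSC22D3. NR3C1, the glucocorticoid receptor itself, was at 52.9 ± 6.84 to 55.3 ± 0.856 CPM with overlapping groups (edgeR adjusted p = 0.506).

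Of 29 genes of steroid synthesis and inactivation, 13 had enough counts to be tested, of which 4 rose and 2 fell (1.2-fold: 2 and 1; median 0.19). UGT2B15, which glucuronidates androgens for excretion, rose at 2.48, 2.17 and 1.53 to 9.12, 10.2 and 8.96 CPM (log2 change 2.19, SE 0.21, edgeR adjusted p = 1.42e-14), and its relatives may share reads with it. HSD11B2, which inactivates cortisol, rose from 9.65 ± 0.448 to 15.2 ± 1.27 CPM and HSD17B11 from 42.2 ± 3.08 to 52.9 ± 4.74 CPM, the latter not past 1.2-fold. SRD5A1, a steroid 5-alpha reductase, fell from 51.6 ± 4.61 to 37.5 ± 1.97 CPM. HSD17B10 rose by 0.24, not past 1.2-fold either, and the carrier SLCO1B3 fell with overlapping groups and a call that was lost in 10 alternatives, for example with an edgeR adjusted p of 0.0514 under total counts. Without control replicate 1 or 3, or depleted replicate 2 or 3, 1 member fell, as under every other alternative that changed this count.

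Lineage factors of the luminal cell changed in both directions, 7 of 23 higher and 9 lower (1.2-fold: 6 and 4; median -0.07). EHF, an epithelial ETS factor, was measured at 10.4, 10.6 and 12.4 CPM in the control libraries and 49.3, 53.2 and 46.4 CPM in the depleted libraries (log2 change 2.15, SE 0.099, edgeR adjusted p = 1.28e-31), a rise in all 3 depleted libraries. GATA2, a pioneer factor of the luminal cell, rose from 145 ± 15.9 to 304 ± 11.5 CPM and GRHL2, which maintains epithelial identity, from 187 ± 5.04 to 340.1 ± 4.4 CPM. ELF3 rose from 46.4 ± 3.15 to 69.7 ± 2.16 CPM and ETV4 from 24.7 ± 2.87 to 39.9 ± 2.79 CPM, and TFAP2C rose from 0.191 ± 0.203 to 2.68 ± 1.17 CPM. HNF4G, a nuclear receptor known from gut and liver, fell from 56.1 ± 1.35 to 29 ± 1.16 CPM. The pioneer factor FOXA1 was at 406 ± 10.3 to 388 ± 2.57 CPM and HOXB13 at 322 ± 12.8 to 338 ± 12.7 CPM, neither of which passed the test (edgeR adjusted p = 0.212 and 0.22). GRHL1 also rose, to a log2 change of 0.27, a call that was lost without depleted replicate 1 (edgeR adjusted p = 0.0567). With limma on FPKM values 7 members rose and 5 fell, and under total counts 8 and 7, so the balance turned to rises.

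Keratins and junction genes rose together, 19 of 31 against 2 that fell, with a median of 0.36 (1.2-fold: 12 and 2). CLDN4, a tight junction claudin, was measured at 27.9, 27.9 and 26.4 CPM in the control libraries and 146, 143 and 154 CPM in the depleted libraries. Every depleted library lay above every control one (log2 change 2.43, SE 0.068, edgeR adjusted p = 1.31e-45). CLDN3 rose from 7.41 ± 1.16 to 26.9 ± 2.28 CPM, the desmosomal plaque genes PKP2 from 5.77 ± 0.708 to 15.4 ± 1.06 CPM and JUP from 180.1 ± 11.7 to 320.4 ± 9.5 CPM, and the luminal keratin KRT8 from 337 ± 7.91 to 495 ± 4.76 CPM. The fallers were the basal keratin KRT15 (6.25 ± 1.19 to 1.56 ± 0.552 CPM) and ESRP1 (437 ± 15.2 to 311 ± 12.1 CPM), an epithelial splicing factor, and on FPKM values or with a mean of at least 5 CPM 1 member fell.

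Mesenchymal genes were split: of 11 tested, 3 rose and 4 fell. VIM, the intermediate filament of mesenchymal cells, was measured at 42.4, 40.6 and 46.1 CPM in the control libraries and 15.1, 12.8 and 13.5 CPM in the depleted libraries, so the groups were well apart (log2 change -1.64, SE 0.098, edgeR adjusted p = 5.32e-25). LOXL2, a collagen cross-linking oxidase, fell from 22.9 ± 2.05 to 13.2 ± 1.37 CPM and TNC from 108 ± 5.23 to 24.6 ± 1.03 CPM, and SNAI2, a repressor of epithelial genes, at 115, 109 and 125 to 72.9, 70.7 and 68.8 CPM. FN1, described below, rose, and TAGLN, an actin-binding protein, rose from 30.7 ± 0.852 to 50.5 ± 1.13 CPM. TGFBI rose from 0.73 ± 0.509 to 1.96 ± 0.767 CPM, a call lost without control replicate 1 (edgeR adjusted p = 0.0808) or depleted replicate 1 (edgeR adjusted p = 0.0662). The summed level of 9 fibroblast and smooth muscle markers was 48.9 to 51.9 CPM in control and 33.7 to 37.3 CPM in depleted libraries. By total counts LUM went from 20.9 to 24.5 CPM down to 1.71 to 3.09 CPM, and DCN was lower too. COL1A1 (16.4 to 18.7, then 20.3 to 24.4 CPM) and COL3A1 (3.21 to 5.33, then 6.61 to 8.54 CPM) were higher. The part of the cells that these markers denote was not tested.

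Matrix genes moved far in both directions. FN1, which encodes fibronectin, was measured at 67.2, 61.8 and 56.6 CPM in the control libraries and 679, 732 and 725 CPM in the depleted libraries (log2 change 3.52, SE 0.054, edgeR adjusted p = 2e-63), an 11.5-fold rise without overlap. RELN, the extracellular guidance protein reelin, went the opposite way at 498, 521 and 522 CPM in the control libraries and 61.6, 66.6 and 68.9 CPM in the depleted libraries (log2 change -2.97, SE 0.053, edgeR adjusted p = 5.62e-59). Of 43 collagens, laminins and matrix glycoproteins, 24 rose and 8 fell (1.2-fold: 16 and 6), with a median of 0.41 and 13 rises of 2-fold or more. The collagen VI chains COL6A1 and COL6A2 rose from 54 ± 3.97 to 121 ± 5.32 CPM and from 27.5 ± 3.79 to 90.2 ± 8.58 CPM, COL5A2 from 20.2 ± 0.916 to 67.9 ± 2.53 CPM and the laminin chain LAMA3 from 2.05 ± 0.294 to 10.3 ± 2.36 CPM. Besides RELN, the fallers were TNC, DCN (1.99, 2.63 and 2.64 to 0.301, 0.0765 and 0.141 CPM), BGN (4.0 ± 0.78 to 0.92 ± 0.33 CPM), NID1 (107 ± 2.95 to 68.8 ± 5.57 CPM), COL4A5, FBLN1 and LAMB1, of which FBLN1 and LAMB1 were not past 1.2-fold. On FPKM values with genes of low level left out, 12 members rose.

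Integrins, the receptors for that matrix, rose in 8 of 19 cases and fell in 2. On FPKM values 3 rose and 1 fell, and with a mean of at least 5 CPM 5 rose. ITGA2, a collagen receptor chain, rose from 11.8 ± 3.22 to 23.7 ± 0.454 CPM, the laminin receptor chain ITGA6 from 5.77 ± 0.121 to 10.6 ± 2.62 CPM and ITGA9 from 4.35 ± 0.546 to 6.9 ± 0.73 CPM. ITGA1 fell from 12.4 ± 1.09 to 5.82 ± 0.141 CPM and ITGAV, which binds fibronectin, from 141 ± 4.99 to 104 ± 1.29 CPM. Of 23 matrix proteases and inhibitors, 10 rose and 4 fell (1.2-fold: 6 and 2). The serpin SERPINI1 rose from 5.65 ± 2.04 to 34.3 ± 3.5 CPM and the metalloprotease ADAMTS1 from 76.5 ± 1.8 to 128 ± 5.84 CPM. The urokinase receptor PLAUR fell from 8.78 ± 0.319 to 4.09 ± 0.81 CPM and MMP24 from 23.3 ± 1.84 to 13.1 ± 1.65 CPM. ADAM9 and ADAMTS3 fell too, neither past 1.2-fold, and ADAMTS3 lost its call in 7 alternatives (edgeR adjusted p = 0.0911 with all 12 libraries in 1 fit).

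The IGF axis changed at the carrier and at the receptor in opposite directions. IGFBP3 was measured at 21.7, 20.9 and 23.7 CPM in the control libraries and 404, 392 and 398 CPM in the depleted libraries. The depleted libraries lay close together, 18.0-fold above the control mean (log2 change 4.17, SE 0.062, edgeR adjusted p = 4.5e-64). IGF1R, the receptor that the carried ligand reaches, was measured at 183, 185 and 178 CPM in the control libraries and 55, 52.8 and 59.4 CPM in the depleted libraries, a fall without overlap (log2 change -1.71, SE 0.06, edgeR adjusted p = 2.68e-39). The adaptor IRS2 fell from 631 ± 5.4 to 420.0 ± 14.9 CPM, IGF2R and IGFALS fell too, and IRS1 by less (-0.24 on the log2 scale, not past 1.2-fold). STC1, a stanniocalcin that inhibits the IGFBP-cleaving protease PAPPA, fell from 46.6 ± 2.69 to 21 ± 0.706 CPM and STC2 from 67 ± 1.42 to 50.2 ± 4.79 CPM. In all, 6 of 17 members rose and 7 fell (1.2-fold: 5 and 6; median 0.01), but with a mean of at least 5 CPM, or on FPKM values, 2 rose. The other risers were IGFBP5 (0.267 ± 0.285 to 1.76 ± 0.632 CPM), PAPPA2 (0.195 ± 0.112 to 1.32 ± 0.453 CPM), IGF2BP1 (1.63 ± 0.35 to 4.55 ± 0.588 CPM), IGFBP1, with 1 count in all control and 55 in all depleted libraries (ratio of total counts 58.1, exact 95% counting interval 10.0 to 2334), and IGFBP2, which rose by 0.19 on the log2 scale and was not past 1.2-fold. INSR, the insulin receptor, was at 63.2 ± 4.07 to 63.8 ± 1.53 CPM (edgeR adjusted p = 0.896).

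In the TGF-beta superfamily, 18 of 44 members rose and 10 fell (1.2-fold: 12 and 2; median 0.09). Beside the ligand subunit INHBA, the pseudoreceptor BAMBI, which dampens the pathway, was measured at 1.56, 2.4 and 1.32 CPM in the control libraries and 10.2, 10.2 and 12.7 CPM in the depleted libraries (log2 change 2.66, SE 0.21, edgeR adjusted p = 3.92e-18). The BMP target genes ID1 and ID3, inhibitors of helix-loop-helix factors, rose from 99.2 ± 6.9 to 205 ± 7.55 CPM and from 139 ± 7.28 to 291 ± 8.42 CPM. FSTL1, a secreted BMP antagonist, fell from 57 ± 0.265 to 32.2 ± 2.11 CPM and the type I receptor ACVR1 from 8.6 ± 0.705 to 5.4 ± 0.892 CPM. The other 8 fallers, BMP1, BMPR1B, BMP2, SMAD2, SMURF2, SMAD4, SMAD3 and BMPR2, changed by -0.16 to -0.38 on the log2 scale. None of these 8 was past 1.2-fold, and SMAD3 and BMPR2 also lost the call in other fits (DESeq2 adjusted p = 0.0592 and 0.076).

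Among WNT genes, 16 of 39 rose and 5 fell (1.2-fold: 13 and 2; median 0.10). DKK1, a secreted inhibitor that blocks the LRP coreceptors, was measured at 2.84, 2.4 and 3.68 CPM in the control libraries and 22.5, 20.2 and 19.8 CPM in the depleted libraries (log2 change 2.80, SE 0.16, edgeR adjusted p = 1.72e-26), each depleted library being above every control one. The receptor FZD4 rose from 9.24 ± 0.775 to 40.6 ± 0.815 CPM while the receptor FZD5 fell from 90.2 ± 5.36 to 42.2 ± 3.43 CPM. Of the ligands, WNT3A rose from 3.08 ± 0.397 to 8.53 ± 0.634 CPM and WNT5A fell from 7.13 ± 0.41 to 3.22 ± 0.268 CPM. WNT3, TCF7 and LGR5 also fell, and each lost its call without single libraries, LGR5 with overlapping groups. Without control replicate 1, without control replicate 2, or with all 12 libraries in 1 fit, 3 members fell, and 2 on FPKM values.

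Notch genes rose in 10 of 23 cases and fell in 2 (1.2-fold: 3 and none). Thus 52.17% of the list changed, beside 48.0% of all genes, and past 1.2-fold 11.7% of all genes rose and 9.52% fell. NOTCH3 was measured at 22.3, 26.6 and 19.8 CPM in the control libraries and 79, 83.8 and 90.7 CPM in the depleted libraries (log2 change 1.89, SE 0.082, edgeR adjusted p = 2.75e-33), apart in every library. DTX4 rose from 6.9 ± 0.689 to 11.2 ± 1.6 CPM. The fallers were DTX3 (45.1 ± 2.1 to 36 ± 0.844 CPM) and MAML1 (118 ± 6.03 to 101 ± 1.05 CPM), neither past 1.2-fold. The count rested partly on 1 library, with 5 rises without depleted replicate 2. Genes used as YAP readouts rose in 7 of 22 cases and fell in 5 (1.2-fold: 7 and 3). IGFBP3 is among them; the tissue factor gene F3 rose from 9.06 ± 1.11 to 20.5 ± 1.58 CPM and AMOTL2 from 12.4 ± 1.27 to 23.3 ± 0.569 CPM, while AMOTL1 fell from 32 ± 2.41 to 13.8 ± 0.846 CPM, WWC1 from 115 ± 3.61 to 81 ± 3.34 CPM and DOCK5 from 131 ± 5.47 to 97.1 ± 5.24 CPM. ASAP1 and TEAD1 fell, with log2 changes of -0.34 and -0.20, not past 1.2-fold.

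Several feedback inhibitors of MAPK signalling rose. DUSP4, a nuclear phosphatase that switches ERK off, was measured at 6.31, 7.13 and 4.44 CPM in the control libraries and 40.7, 37.9 and 42 CPM in the depleted libraries (log2 change 2.76, SE 0.12, edgeR adjusted p = 2.65e-33). The depleted libraries were all far above the control ones. DUSP2 rose from 7.99 ± 0.14 to 20.7 ± 1.62 CPM, SPRY1, which blocks receptor tyrosine kinase signalling, from 10.5 ± 1.62 to 20.9 ± 1.54 CPM, and BTG2, an antiproliferative immediate early gene, from 23.8 ± 2.01 to 58 ± 2.49 CPM. Over the list of immediate early and feedback genes, 19 of 37 rose and 5 fell (1.2-fold: 15 and none), with a median of 0.37. The fallers were JUN (155 ± 1.87 to 128 ± 3.12 CPM), ATF3 (133 ± 7.22 to 106 ± 3.49 CPM), KLF4 (45.7 ± 0.948 to 35.3 ± 2.39 CPM), KLF6 (16.1 ± 1.16 to 12.1 ± 0.88 CPM) and DUSP10, with log2 changes between -0.23 and -0.42.

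Receptors and ligands of growth factors rose in 19 of 33 cases and fell in 6 (1.2-fold: 12 and 4; median 0.36). EPHA7 was measured at 93.8, 94.5 and 105 CPM in the control libraries and 223, 225 and 215 CPM in the depleted libraries (log2 change 1.18, SE 0.055, edgeR adjusted p = 1.88e-31). ERBB4 rose from 4.38 ± 1.25 to 10.7 ± 2.04 CPM, the ephrin EFNB2 from 5.16 ± 1.09 to 10.3 ± 1.08 CPM and EPHA1 from 5.73 ± 0.49 to 12.2 ± 1.2 CPM. EGFR fell from 1961 ± 34.5 to 1360.5 ± 33.6 CPM and VEGFA, the angiogenic ligand, from 1855 ± 31.7 to 1222 ± 15.9 CPM. EPHB4 fell from 173 ± 5.97 to 132 ± 2.5 CPM and FGF13 from 11.5 ± 2.16 to 7.97 ± 0.857 CPM, with PDGFA and EPHA3 also lower. PDGFA lost its call without depleted replicate 2 (edgeR adjusted p = 0.0936), and FGF13 and EPHA3 were not past 1.2-fold.

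Semaphorins, plexins and other guidance genes rose in 19 of 34 cases and fell in 6 (1.2-fold: 13 and 3). SEMA3C, secreted and known to be androgen-regulated, was measured at 16.3, 15.6 and 17.3 CPM in the control libraries and 79.1, 79.2 and 74.3 CPM in the depleted libraries (log2 change 2.24, SE 0.083, edgeR adjusted p = 1.52e-37). SEMA6B rose from 12.6 ± 2.06 to 26.9 ± 2.3 CPM and SEMA3F from 9.16 ± 0.502 to 19 ± 0.958 CPM. Several receptors fell, PLXNB1 from 192 ± 11.5 to 129 ± 13.5 CPM, PLXND1 from 144 ± 6.81 to 111 ± 9.07 CPM, NRP1 from 27.5 ± 2.56 to 20.5 ± 1.82 CPM and NEO1 from 76.9 ± 1.64 to 62.5 ± 4.41 CPM. Among the risers were the receptors ROBO1 (141 ± 6.26 to 223 ± 6.58 CPM), PLXNA3 and PLXNB3, the last 2 not past 1.2-fold. SEMA5B and SEMA4C fell as well, and NRP1, SEMA4C and NEO1 were not past 1.2-fold.

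**Figure D3:**
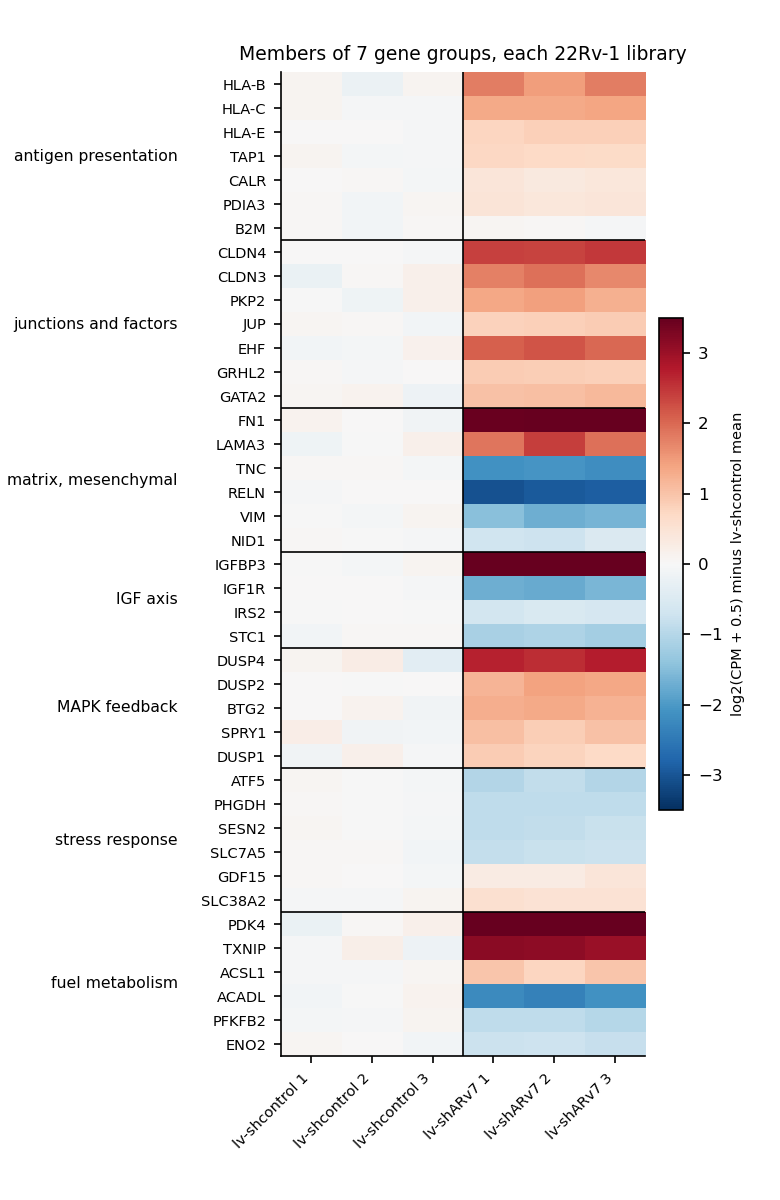
Colour shows log2(CPM + 0.5) minus the mean of the 3 control libraries, for 41 genes of 7 groups (rows) in each of the 6 libraries (columns); values past 3.5 in size are drawn at that colour. The 3 depleted libraries are alike within each row, with FN1, IGFBP3 and PDK4 at the top of the scale and RELN, ACADL and TNC at the lower end.

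Of 25 antigen presentation genes tested, 12 rose and none fell, all 12 past 1.2-fold, with a median of 0.58. HLA-C was measured at 33.3, 30.4 and 30.7 CPM in the control libraries and 79, 79.5 and 82.6 CPM in the depleted libraries (log2 change 1.35, SE 0.074, edgeR adjusted p = 2.82e-27). HLA-B rose from 4.18 ± 0.534 to 14.6 ± 1.91 CPM, the nonclassical HLA-E from 37.5 ± 0.919 to 66.3 ± 2.03 CPM and TAP1, which carries peptides into the endoplasmic reticulum, from 15.6 ± 1.04 to 25.6 ± 0.446 CPM. The loading chaperones CALR and PDIA3 rose from 474 ± 15.7 to 618 ± 16.9 CPM and from 245 ± 13 to 328 ± 5.51 CPM. B2M, the light chain of all class I molecules, was at 139 ± 7.3 to 142 ± 6.0 CPM with overlapping groups (edgeR adjusted p = 0.702). The peptide transporter and loading genes TAP2 and TAPBP, the proteasome genes PSMB8 and PSMB10 and the trimming enzymes ERAP1 and ERAP2 were also among the 13 that did not pass. HLA genes are close paralogs and may share reads. Several of the 12 stood at few counts, among them HLA-DRA at 0.284, 0.0775 and 0.139 to 2.64, 1.07 and 1.76 CPM and CD74 at 0.78, 0.155 and 0.486 to 7.84, 0.535 and 3.17 CPM, where the groups overlapped. Leaving out genes under a mean of 5 CPM left 6 rises and limma on log2(FPKM + 1) 7, and without control replicate 3, 1 member fell. The 7 blood cell markers summed to 2.89 to 3.90 CPM in control and 4.35 to 13.8 CPM in depleted libraries, with CD3E and HBB at 0 counts. PTPRC, which marks all white cells, was at 0.0761 to 0.139 CPM and then 0.544 to 1.98 CPM of total counts, and the part of such transcripts in the class II genes was not tested.

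Interferon-stimulated genes did not move as 1 group: 6 of 28 rose and 7 fell (1.2-fold: 2 and 4), with a median of -0.01. BST2, the tethering antiviral protein, was measured at 6.1, 5.97 and 7.01 CPM in the control libraries and 21.3, 20.1 and 19.7 CPM in the depleted libraries (log2 change 1.68, SE 0.13, edgeR adjusted p = 2.14e-18). The RNA sensor DHX58 rose from 7.98 ± 0.609 to 12.3 ± 1.31 CPM and the ubiquitin-like ISG15 from 88.4 ± 5.8 to 113 ± 2.43 CPM, the latter not past 1.2-fold. PARP14, a mono-ADP-ribosyltransferase, fell from 103 ± 7.6 to 70.2 ± 5.33 CPM and the ubiquitin ligase DTX3L from 84.8 ± 2.22 to 57 ± 5.2 CPM. HERC6 fell from 8.15 ± 1.09 to 5.28 ± 1.01 CPM, IFI44L from 2.24 ± 0.853 to 0.645 ± 0.17 CPM, and RSAD2 from 8.01 ± 2.23 to 5.29 ± 1.05 CPM with overlapping groups and a call lost without control replicate 3, among 4 alternatives. IFIH1, IFI6 and STAT2, which also rose, each lost the call without a single library, and without depleted replicate 3 only 3 members rose. On FPKM values 5 rose and 4 fell, and under total counts 7 and 6.

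The promoters of several of these genes, among them risers and fallers, hold the same element. In RefSeq windows of 300 bases (250 before to 50 after each annotated start, GRCh38.p14), the interferon-stimulated response element was searched as GAAANNGAAA on both strands. Overlapping matches were kept, and a gene with any match was counted once. It was found for 16 of 23 interferon-stimulated genes with a window and for 9 of 20 antigen presentation genes, beside 3.83% of all 10780 tested genes with a window. It was found for 3.63% of genes that rose and 4.36% of genes that fell. Shown are TAP1 and BST2, which rose, and PARP14 and IFI44L, which fell, each 5′ to 3′ along the gene with matches in capitals: TAP1 at chr6:32853655-32853954 (minus strand), BST2 at chr19:17405581-17405880 (minus strand), PARP14 at chr3:122680589-122680888 (plus strand) and IFI44L at chr1:78620198-78620497 (plus strand).
TAP1: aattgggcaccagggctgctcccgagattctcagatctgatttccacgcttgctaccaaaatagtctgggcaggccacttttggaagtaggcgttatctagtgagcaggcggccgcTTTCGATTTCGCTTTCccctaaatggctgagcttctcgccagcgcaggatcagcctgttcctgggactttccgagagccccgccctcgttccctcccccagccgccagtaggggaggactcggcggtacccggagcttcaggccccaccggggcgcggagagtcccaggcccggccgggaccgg
BST2: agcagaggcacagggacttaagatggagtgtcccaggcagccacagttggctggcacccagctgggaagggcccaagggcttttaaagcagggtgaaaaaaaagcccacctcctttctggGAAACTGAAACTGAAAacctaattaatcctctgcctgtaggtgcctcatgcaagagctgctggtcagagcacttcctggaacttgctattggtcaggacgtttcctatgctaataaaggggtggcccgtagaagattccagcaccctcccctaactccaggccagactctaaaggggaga
PARP14: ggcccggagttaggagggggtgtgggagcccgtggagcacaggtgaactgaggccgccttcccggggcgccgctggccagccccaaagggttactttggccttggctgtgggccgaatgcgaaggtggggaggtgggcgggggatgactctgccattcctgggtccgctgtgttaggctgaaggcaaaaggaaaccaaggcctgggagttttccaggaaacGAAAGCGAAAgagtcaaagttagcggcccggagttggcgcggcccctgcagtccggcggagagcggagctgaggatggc
IFI44L: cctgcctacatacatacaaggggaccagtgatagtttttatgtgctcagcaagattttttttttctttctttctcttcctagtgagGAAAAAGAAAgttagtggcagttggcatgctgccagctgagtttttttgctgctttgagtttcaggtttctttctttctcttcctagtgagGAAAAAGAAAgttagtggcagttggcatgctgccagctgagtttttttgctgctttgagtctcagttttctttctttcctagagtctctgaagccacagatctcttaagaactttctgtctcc

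A match is a description of these letters and not a bound site. In both TAP1 and BST2 the matches overlap into 1 longer run, whereas IFI44L holds 2 separate ones. Both directions of change are among the 4 genes shown.

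NF-kB genes rose in 10 of 22 cases and fell in 3 (1.2-fold: 6 and 1; median 0.16). NFKBIZ, an inducible nuclear cofactor, was measured at 13.1, 11.7 and 12.8 CPM in the control libraries and 88.2, 82.1 and 79.2 CPM in the depleted libraries (log2 change 2.73, SE 0.087, edgeR adjusted p = 5.85e-42). NFKB2, the precursor of p52, rose from 43.9 ± 2.05 to 84.4 ± 4.56 CPM and the inhibitor NFKBIE from 6.23 ± 0.882 to 9.69 ± 0.94 CPM, beside PTGS2. NFKB1 stood at 26.3 ± 3.79 to 26.2 ± 2.13 CPM and the feedback inhibitor NFKBIA at 54.6 ± 3.07 to 58.7 ± 2.3 CPM, and neither passed the test (edgeR adjusted p = 0.996 and 0.228). The fallers were the cytokine CSF1 (2.98 ± 0.365 to 1.42 ± 0.242 CPM) and the receptor chains IL6ST and IL6R, neither of which was past 1.2-fold.

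Most genes of the integrated stress response fell. Its factor ATF4 drives amino acid synthesis, uptake and transfer RNA charging. Of 33 members, 27 fell and 2 rose (1.2-fold: 19 and 1), with a median of -0.42. PHGDH, the entry enzyme of serine synthesis, was measured at 450.1, 435 and 419.8 CPM in the control libraries and 237, 235 and 234 CPM in the depleted libraries, every depleted library being lower (log2 change -0.89, SE 0.046, edgeR adjusted p = 2.34e-28). ATF5 fell from 46.6 ± 2.35 to 23.5 ± 1.73 CPM, the leucine sensor SESN2 from 122 ± 5.46 to 67.8 ± 2.25 CPM and the serine carrier SLC1A4 from 81.3 ± 5.67 to 46.7 ± 2.16 CPM. The exceptions were the glutamine carrier SLC38A2 (1553 ± 78.5 to 2232 ± 33.5 CPM) and the secreted stress cytokine GDF15 (129.8 ± 4.93 to 164 ± 8.25 CPM), the latter not past 1.2-fold. The ATF4 element, searched as TGATGNAAT, was found in none of the windows of the 27 members that had one, and for 0.705% of all tested genes with a window. The full androgen response element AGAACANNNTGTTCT was found in no window of a tested gene, and for 1 of all 27305 genes with a window. Both strings are so rare that finding none was likely beforehand. It says nothing of these genes or of sites elsewhere.

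Among genes of the unfolded protein response and chaperones of the endoplasmic reticulum, 16 of 37 rose and 7 fell (1.2-fold: 11 and none; median 0.12). HSPA5, the central chaperone BiP, was measured at 268, 254 and 261 CPM in the control libraries and 460.1, 428 and 439 CPM in the depleted libraries (log2 change 0.76, SE 0.046, edgeR adjusted p = 1.26e-24). CRELD2 rose from 54.7 ± 5.12 to 102 ± 2.29 CPM, the oxidase ERO1A from 28.4 ± 3.02 to 50.7 ± 3.55 CPM and the coat component SEC24D from 11.7 ± 0.423 to 18.2 ± 0.856 CPM. The fallers were HYOU1, SEC61A1, SEL1L, CREB3L2, CREB3L4, ERO1B and DERL3, with log2 changes of -0.18 to -0.44. Heat shock genes rose in 19 of 36 cases and fell in 5 (1.2-fold: 7 and 2). The small heat shock protein HSPB1 rose from 256 ± 13.4 to 478 ± 11.5 CPM, HSPB8 from 6.14 ± 1.85 to 14.9 ± 1.1 CPM and DNAJC12 from 3.7 ± 0.209 to 7.29 ± 0.623 CPM. DNAJB5 fell from 10.1 ± 1.56 to 4.72 ± 0.266 CPM and the mitochondrial chaperone HSPA9 from 1251 ± 9.32 to 952 ± 14.5 CPM, with the factors HSF1 and HSF2 and the steroid receptor cochaperone FKBP4 lower, at log2 changes of -0.23 to -0.38, not past 1.2-fold.

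Of 30 oxidative stress and NRF2 genes, 12 rose and 6 fell (1.2-fold: 6 and 2). TXNIP, which binds thioredoxin and limits glucose uptake, was measured at 10.8, 13 and 9.78 CPM in the control libraries and 104, 101 and 93.2 CPM in the depleted libraries (log2 change 3.15, SE 0.088, edgeR adjusted p = 1.25e-45). The peroxidase PRDX1 rose from 93.2 ± 1.63 to 169 ± 5.32 CPM and HMOX1 from 6.89 ± 0.587 to 11.4 ± 0.181 CPM. FTH1, the ferritin heavy chain, fell from 91.2 ± 12.2 to 62.2 ± 7.54 CPM and the exporter ABCC2 from 40.6 ± 4.09 to 29.4 ± 1.53 CPM; FTH1 has near-identical pseudogenes that may share its reads. PGD, SLC7A11, GSR and GCLC fell by less, not past 1.2-fold. Of 14 metallothioneins and zinc transporters, 2 rose and 4 fell (1.2-fold: 1 and 3). MT2A is given above, MT1E fell from 8.04 ± 1.75 to 2.36 ± 0.464 CPM and the importer SLC39A8 rose from 42 ± 3.95 to 69.9 ± 2.67 CPM. The other riser, SLC39A10, lost its call without control replicate 2 (edgeR adjusted p = 0.0827), and without control replicate 3, 4 members rose.

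PDK4, a pyruvate dehydrogenase kinase, was measured at 39.4, 47.6 and 52.1 CPM in the control libraries and 544, 539 and 523 CPM in the depleted libraries, an 11.6-fold rise (log2 change 3.53, SE 0.06, edgeR adjusted p = 1.08e-60). ACADL, a long-chain acyl-CoA dehydrogenase, was measured at 21, 22.2 and 24.8 CPM in the control libraries and 4.45, 3.98 and 4.8 CPM in the depleted libraries and so fell in every library (log2 change -2.36, SE 0.14, edgeR adjusted p = 6.52e-25). Of 42 glycolysis and hypoxia genes, 15 rose and 9 fell (1.2-fold: 7 and 5; median 0.08). PFKFB4 rose from 11.1 ± 0.869 to 22.5 ± 2.15 CPM and the carbonic anhydrase CA12 from 20.1 ± 0.508 to 45.7 ± 1.72 CPM, while PFKFB2, another isozyme of the first, fell from 123 ± 7.77 to 64.3 ± 2.77 CPM. ENO2 fell from 566 ± 31 to 334 ± 10.5 CPM, TPI1 from 1089.9 ± 54.5 to 826 ± 28.5 CPM and NDRG1 from 78.3 ± 2.26 to 51.9 ± 4.66 CPM, beside VEGFA. SLC2A12, PGAM1, HIF1A and ENO1 fell, with log2 changes of -0.13 to -0.36, not past 1.2-fold, and SLC2A12 with overlapping groups.

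Of 38 fatty acid genes 13 rose and 14 fell, and the falls were the larger (1.2-fold: 2 and 9), while on FPKM values or under total counts 14 rose and 11 fell. ACSL1, which activates fatty acids, rose from 56.3 ± 2.58 to 106 ± 8.6 CPM, and the importer CD36 from 0.515 ± 0.326 to 2.47 ± 0.794 CPM. The elongase ELOVL2 fell from 53.8 ± 3.31 to 33 ± 1.77 CPM and the nuclear receptor PPARA from 54.6 ± 0.788 to 34.6 ± 3.16 CPM. Among the smaller rises, CPT1A, the gate of mitochondrial oxidation, went from 125 ± 8.18 to 155 ± 3.31 CPM. In the cholesterol list, 10 of 34 rose and 8 fell (1.2-fold: 5 and 3; median -0.01). The share that changed was 52.94%, beside 48.0% of all genes, of which 21.3% changed past 1.2-fold. The exporter ABCG1 rose from 2.66 ± 0.663 to 8.58 ± 1.06 CPM and TM7SF2 from 41.8 ± 1.97 to 83.5 ± 7.44 CPM, while ACAT2 fell from 26.1 ± 2.63 to 17 ± 2.29 CPM. STARD4, SCAP and the regulator SREBF2 fell, with log2 changes of -0.24, -0.25 and -0.18, not past 1.2-fold, and STARD4 lost its call under total counts (edgeR adjusted p = 0.0595). On FPKM values or under total counts 5 members fell, and without depleted replicate 1 (8 rose and 9 fell) or control replicate 2 (7 and 8) falls outnumbered rises.

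Amino acid carriers fell in 11 of 30 cases and rose in 8 (1.2-fold: 10 and 4). SLC7A5, the large neutral carrier that pairs with SLC3A2, was measured at 3929, 3919 and 3577 CPM in the control libraries and 2145, 2233 and 2276 CPM in the depleted libraries (log2 change -0.78, SE 0.036, edgeR adjusted p = 1.13e-31). SLC6A9, a glycine carrier, fell from 65 ± 2.88 to 36.3 ± 3.68 CPM, beside SLC38A4 and SLC1A4. SLC38A2 is given above, and SLC7A8 rose from 9.46 ± 0.144 to 14.4 ± 1.28 CPM and SLC1A3 from 3.32 ± 0.894 to 6.02 ± 1.28 CPM. SLC43A1, SLC43A2 and SLC16A10 rose by 0.35 to 0.39, not past 1.2-fold, and SLC36A4 and SLC1A2 rose at levels under 3 CPM. On FPKM values, or with a mean of at least 5 CPM, 5 carriers rose. Of 18 polyamine genes, 4 rose and 2 fell. AMD1, which supplies decarboxylated S-adenosylmethionine, rose from 786 ± 34.7 to 1108 ± 17.1 CPM, SAT1 from 47.5 ± 3.38 to 74.5 ± 5.96 CPM and AZIN2 from 4.62 ± 1.04 to 8.29 ± 0.897 CPM. ARG2 fell from 8.93 ± 1.65 to 5.94 ± 0.945 CPM and OAZ1 with a log2 change of -0.15, a call lost under total counts (edgeR adjusted p = 0.0759) and without control replicate 2, either of which left 1 faller, as did the fit of all 12 libraries and FPKM values.

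Nuclear subunits of the respiratory chain rose by small steps, 14 of 41, with 2 lower (1.2-fold: 3 and none; median 0.15), while transcripts made in the mitochondrion fell. NDUFB3 rose from 14.3 ± 2.66 to 20.3 ± 2.48 CPM, COX7A2 from 57.4 ± 5.01 to 79.1 ± 3.25 CPM and NDUFA4 from 130.0 ± 2.96 to 173 ± 5.03 CPM, and UQCRC1 fell from 369 ± 10.5 to 321 ± 8.92 CPM. NDUFA10 fell too, a call lost in 9 alternatives, and 1 member fell on FPKM values, under total counts, with the replicate block, with a mean of at least 5 CPM or without control replicate 1, control replicate 2 or depleted replicate 2, and 4 without control replicate 3. Of the 13 mitochondrially encoded genes, 9 fell and 1 rose (1.2-fold: 2 and none; median -0.20). MT-CYB was measured at 2947, 3232 and 3006 CPM in the control libraries and 2169, 1968 and 1893 CPM in the depleted libraries (log2 change -0.61, SE 0.038, edgeR adjusted p = 1.19e-23). MT-CO1 fell from 15469.9 ± 269 to 12272 ± 336 CPM, and MT-ND6, the gene on the light strand, rose from 379.9 ± 19.6 to 455 ± 11.6 CPM, and without control replicate 3 or under total counts 2 members rose, and 3 on FPKM values. Since strand use in counting is not stated, reads of the opposite strand may be part of the MT-ND6 value. Mitochondrially encoded genes took 3.94% to 3.98% of the counts in control and 3.34% to 3.43% in depleted libraries.

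Cytosolic ribosomal protein genes rose in 36 of 45 cases and none fell, but by small steps, 2 past 1.2-fold (median 0.15, highest RPL24 at 0.52). RPL24 was measured at 585, 583 and 549 CPM in the control libraries and 853, 784 and 823 CPM in the depleted libraries, and RPS3 rose from 862 ± 32.8 to 1099.7 ± 11.4 CPM. As a share of counts, the group took 6.61% to 6.92% in control and 7.71% to 8.16% in depleted libraries, without overlap. These genes have many processed copies that may share reads. Of 42 ribosome biogenesis factors, 5 rose and 6 fell (1.2-fold: 2 and none), a smaller share than over all genes (26.19% against 48.0%). On FPKM values 8 rose and 3 fell, and under total counts or with a mean of at least 5 CPM 7 and 5. WDR75 rose from 69 ± 2.06 to 103 ± 3.64 CPM and NOP10 from 28.9 ± 2.36 to 38.8 ± 3.37 CPM, with NPM1, GNL3 and GNL2, and UTP20 fell from 79.9 ± 3.54 to 64.7 ± 1.37 CPM. MYC rose from 269 ± 6.61 to 316 ± 4.22 CPM, and of the 12 genes of its network 3 rose and 2 fell, none past 1.2-fold. MXD1 fell from 30.7 ± 2.86 to 23.4 ± 2.0 CPM, and MXD3 fell with overlapping groups and a call that was lost without control replicate 2, without depleted replicate 2 and on FPKM values.

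Chromatin regulators fell in 33 of 58 cases and rose in 7 (1.2-fold: 11 and 4; median -0.17). DNMT1, the maintenance DNA methyltransferase, was measured at 343, 345 and 309 CPM in the control libraries and 206, 207 and 204 CPM in the depleted libraries (log2 change -0.69, SE 0.049, edgeR adjusted p = 5.86e-21). The acetyltransferase gene CREBBP fell from 172 ± 5.5 to 111 ± 9.15 CPM, and the SWI/SNF genes ARID1A from 575 ± 22.9 to 382 ± 13.6 CPM and SMARCA2 from 161 ± 1.9 to 107 ± 2.39 CPM. The risers were the deacetylases HDAC11 (8.68 ± 1.11 to 12.9 ± 1.15 CPM), HDAC4 (17.5 ± 1.93 to 25.1 ± 3.51 CPM), HDAC1 and HDAC5, the demethylases KDM5B (172 ± 2.94 to 226 ± 3.63 CPM) and KDM7A (91.2 ± 9.12 to 119 ± 0.324 CPM), and JARID2, whose call was lost without control replicate 1. Other deacetylases and demethylases, HDAC6, HDAC9, KDM2B, KDM4A, KDM4B and KDM5C, fell. Splicing factors fell in 19 of 50 cases and rose in 4 (1.2-fold: 4 and 1). HNRNPH3 fell from 224 ± 12.7 to 154 ± 2.13 CPM, PTBP3 from 239 ± 19.4 to 168 ± 6.02 CPM and RBM5, which shifts splicing of death genes, from 179 ± 8.32 to 135 ± 6.55 CPM. NOVA2, a neuronal splicing factor, rose from 0.457 ± 0.0967 to 3.79 ± 1.24 CPM, and HNRNPF, MBNL2 and ESRP2 rose by 0.20 to 0.27, not past 1.2-fold.

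Glycosylation enzymes and mucins rose in 18 of 41 cases and fell in 3 (1.2-fold: 13 and 2; median 0.27). MUC13, a transmembrane mucin, was measured at 21.6, 23.2 and 23.7 CPM in the control libraries and 83.2, 88.6 and 83 CPM in the depleted libraries (log2 change 1.90, SE 0.077, edgeR adjusted p = 4.88e-35). GALNT3, which starts O-glycans, rose from 25.6 ± 1.75 to 90.5 ± 5.35 CPM, GCNT1, which branches them, from 7.82 ± 0.0879 to 24 ± 3.7 CPM, and MGAT4A from 4.85 ± 0.489 to 15.2 ± 1.16 CPM. ST8SIA1 fell from 10.3 ± 1.4 to 4.52 ± 0.849 CPM, HAS3 from 7.99 ± 1.09 to 5.17 ± 0.764 CPM and ST3GAL3 from 9.72 ± 1.67 to 7.07 ± 0.386 CPM, the last losing its call without control replicate 1 (edgeR adjusted p = 0.162), and on FPKM values 1 member fell.

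Surface proteins that are targets of prostate cancer therapy rose in 8 of 13 cases and fell in 3 (1.2-fold: 4 and 3). STEAP1, a metalloreductase of the prostate cell surface, fell, at 222, 204 and 237 CPM in the control libraries and 97, 97.4 and 91.2 CPM in the depleted libraries (log2 change -1.22, SE 0.056, edgeR adjusted p = 1.02e-31). STEAP2 fell from 806 ± 51.1 to 377 ± 2.79 CPM and SLC45A3, the prostein gene, from 57.2 ± 7.38 to 32.1 ± 1.14 CPM. NECTIN4, the adhesion protein targeted by an antibody-drug conjugate, rose from 0.703 ± 0.0755 to 7.47 ± 1.18 CPM. FOLH1, which encodes prostate-specific membrane antigen, rose from 696 ± 29.5 to 848 ± 19.7 CPM, not past 1.2-fold. DLL3 stood at 5.18, 2.56 and 4.09 to 4.9, 7.04 and 6.49 CPM, with overlapping groups and a call that was lost without control replicate 2 (edgeR adjusted p = 0.142).

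Of 29 neuroendocrine and neuronal genes, 15 fell and 8 rose (1.2-fold: 12 and 6; median -0.22). The defining markers were lower: CHGA, chromogranin A, went from 4.92 ± 0.481 to 1.68 ± 0.201 CPM and SYP, synaptophysin, from 35 ± 4.37 to 21.8 ± 0.639 CPM. SRRM4, the neuronal splicing regulator, fell from 276 ± 3.0 to 155 ± 1.32 CPM. Against these, CPE, a prohormone-processing carboxypeptidase, was measured at 80.9, 85.2 and 78.3 CPM in the control libraries and 277, 249.8 and 251 CPM in the depleted libraries (log2 change 1.67, SE 0.056, edgeR adjusted p = 9.96e-41). NCAM2 rose from 65.7 ± 4.19 to 175 ± 5.64 CPM, MAPT from 24.6 ± 1.79 to 50.2 ± 0.831 CPM, the granule protein VGF from 203 ± 7.08 to 355 ± 14.1 CPM and NEFH from 1.45 ± 0.232 to 5.99 ± 1.97 CPM. NTS, neurotensin, had 0 counts in the control libraries and 46 in the depleted ones, at least 16.2-fold higher against a floor of 3 counts over the group. NEFL and SYT4 rose by 0.25 and 0.12, not past 1.2-fold. The 6 neuroendocrine markers summed to 582 to 650 CPM in control and 371 to 388 CPM in depleted libraries, nearly all of it ENO2.

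Among cAMP and calcium signalling genes, several phosphodiesterases, which break cyclic nucleotides down, changed. Besides PDE4B and PDE10A, PDE4D was measured at 7.23, 6.59 and 5.62 CPM in the control libraries and 31.9, 31.6 and 25.8 CPM in the depleted libraries (log2 change 2.20, SE 0.12, edgeR adjusted p = 2.64e-26), while PDE3A fell, at 48.5, 47.3 and 54.2 to 24.9, 20.5 and 26.1 CPM. CAMK2B rose from 16.6 ± 4.08 to 36.3 ± 1.51 CPM. RGS2, which shortens G-protein signals, fell from 559.5 ± 27.7 to 293 ± 14.9 CPM and the calcium release channel ITPR3 from 261 ± 6.29 to 135 ± 6.76 CPM. Over the list, 20 of 54 rose and 16 fell (1.2-fold: 13 and 5; median 0.00). AKAP12 fell from 52.8 ± 1.69 to 35.2 ± 1.38 CPM and ITPR2 from 40.4 ± 3.72 to 29.6 ± 1.47 CPM. The remaining fallers changed by -0.12 to -0.50 on the log2 scale and were not past 1.2-fold. On FPKM values 13 members rose and 8 fell, and with a mean of at least 5 CPM 13 rose. Ion channel genes rose in 15 of 37 cases and fell in 8 (1.2-fold: 12 and 4). The epithelial sodium channel SCNN1A rose from 7.72 ± 0.638 to 24.1 ± 2.29 CPM, SCN4B from 2.34 ± 0.803 to 9.26 ± 1.06 CPM and KCNJ3 from 23.2 ± 2.85 to 49.7 ± 0.98 CPM, against falls of KCNMA1, SCN8A (85.1 ± 1.34 to 40.8 ± 1.43 CPM), KCNN2 (11.3 ± 0.407 to 5.69 ± 0.365 CPM) and KCNK5 (12.5 ± 1.93 to 7.2 ± 0.402 CPM). With a mean of at least 5 CPM 8 channel genes rose, and on FPKM values 5 fell.

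Clock genes were split, 8 of 22 higher and 7 lower (1.2-fold: 5 and 2). BHLHE41, a repressor of the clock loop, was measured at 180.4, 185 and 188 CPM in the control libraries and 75.2, 72.8 and 70.6 CPM in the depleted libraries (log2 change -1.34, SE 0.057, edgeR adjusted p = 6.47e-34). PER2 fell from 60.3 ± 4.83 to 41 ± 4.28 CPM, while DBP rose from 5.13 ± 0.338 to 16.4 ± 1.54 CPM, NR1D1 from 3.47 ± 1.07 to 8.87 ± 2.74 CPM and ARNTL2 from 5.53 ± 0.637 to 11.8 ± 1.03 CPM. NFIL3, which opposes DBP at shared sites, fell from 9.05 ± 0.158 to 6.19 ± 0.957 CPM, not past 1.2-fold. On FPKM values 4 fell, and the balance turned to falls without control replicate 2 (6 rose and 7 fell) or control replicate 3 (7 and 8).

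Autophagy and lysosome genes rose in 19 of 45 cases and fell in 6 (1.2-fold: 10 and none; median 0.15). In this list 55.56% changed, beside 48.0% of all genes, of which 21.3% changed past 1.2-fold. GABARAPL1 was measured at 14.8, 14.3 and 11.7 CPM in the control libraries and 32.3, 27.3 and 28.9 CPM in the depleted libraries (log2 change 1.12, SE 0.11, edgeR adjusted p = 1.06e-14). MAP1LC3A rose from 20.8 ± 0.718 to 35.4 ± 0.391 CPM and the lysosomal proteases CTSD from 17.6 ± 2.08 to 30.7 ± 2.42 CPM and CTSL from 36.3 ± 1.72 to 62.3 ± 4.65 CPM. The fallers, UVRAG, ATG5, ATG3, ATG7, ATG13 and ATG12, changed by -0.16 to -0.31, and under total counts 1 member fell and on FPKM values none. Of 33 p53 targets, 11 rose and 9 fell (1.2-fold: 7 and 3). TP53INP1 rose from 43.3 ± 3.37 to 97.4 ± 0.982 CPM and PLK3 from 10.4 ± 0.529 to 15.2 ± 1.91 CPM, beside BTG2. PPM1D fell from 36.5 ± 2.25 to 25.8 ± 0.634 CPM and EDA2R from 23.8 ± 1.45 to 17.1 ± 1.16 CPM, beside SESN2, and AEN, DDB2, FAS, XPC, BAX and MDM2 fell with log2 changes of -0.19 to -0.42, not past 1.2-fold. Without control replicate 1, 9 p53 targets rose and 10 fell. In the BCL2 family and death regulators, 6 of 32 rose and 6 fell (1.2-fold: 1 and 2). CFLAR, which blocks caspase 8, fell from 55.1 ± 2.65 to 32.8 ± 1.02 CPM and PMAIP1, the death activator NOXA, from 33.7 ± 3.65 to 21.6 ± 1.23 CPM. BOK rose from 25.9 ± 4.65 to 35 ± 0.537 CPM, and BIK from 6.58 ± 0.19 to 9.64 ± 0.784 CPM and BID from 5.05 ± 0.478 to 7.49 ± 0.83 CPM, these 2 not past 1.2-fold. Under total counts 10 members rose.

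Most proliferation and repair genes fell, each by less than 2-fold. Of 40 replication and G1/S genes, 37 fell and none rose (1.2-fold: 31; median -0.53), of 39 mitosis genes 31 fell and 1 rose (14 and none; -0.36), and of 36 homologous recombination and Fanconi genes 27 fell and 1 rose (21 and none; -0.50). CDC45 fell from 85.5 ± 2.49 to 45.5 ± 1.94 CPM, FOXM1 from 128 ± 6.73 to 78.4 ± 3.31 CPM and RAD54L from 23.8 ± 2.21 to 13 ± 1.25 CPM. The exceptions were CDC25B (75.3 ± 1.37 to 89 ± 5.59 CPM), not past 1.2-fold, and BARD1 (45.4 ± 7.61 to 55.8 ± 3.21 CPM), with overlapping groups and a call lost without control replicate 1 (edgeR adjusted p = 0.0552). Among these 3 lists CDC45 had the lowest log2 change, at -0.91. The E2F element, searched as TTTCCCGC on both strands, was found for 10 of 34 replication genes with a window, and for 4.67% of genes that fell, 2.15% that rose and 3.19% of all tested genes with a window. The window of LIG1, the replicative DNA ligase (102 ± 2.76 to 57 ± 2.86 CPM), at chr19:48170295-48170594 (minus strand), is shown with its match in capitals.
LIG1: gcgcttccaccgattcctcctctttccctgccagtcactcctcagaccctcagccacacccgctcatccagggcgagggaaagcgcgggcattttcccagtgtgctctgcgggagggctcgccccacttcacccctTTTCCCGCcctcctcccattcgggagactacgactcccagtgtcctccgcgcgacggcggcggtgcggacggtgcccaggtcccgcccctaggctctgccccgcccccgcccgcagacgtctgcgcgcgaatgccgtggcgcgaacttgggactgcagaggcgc

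**Figure D4:**
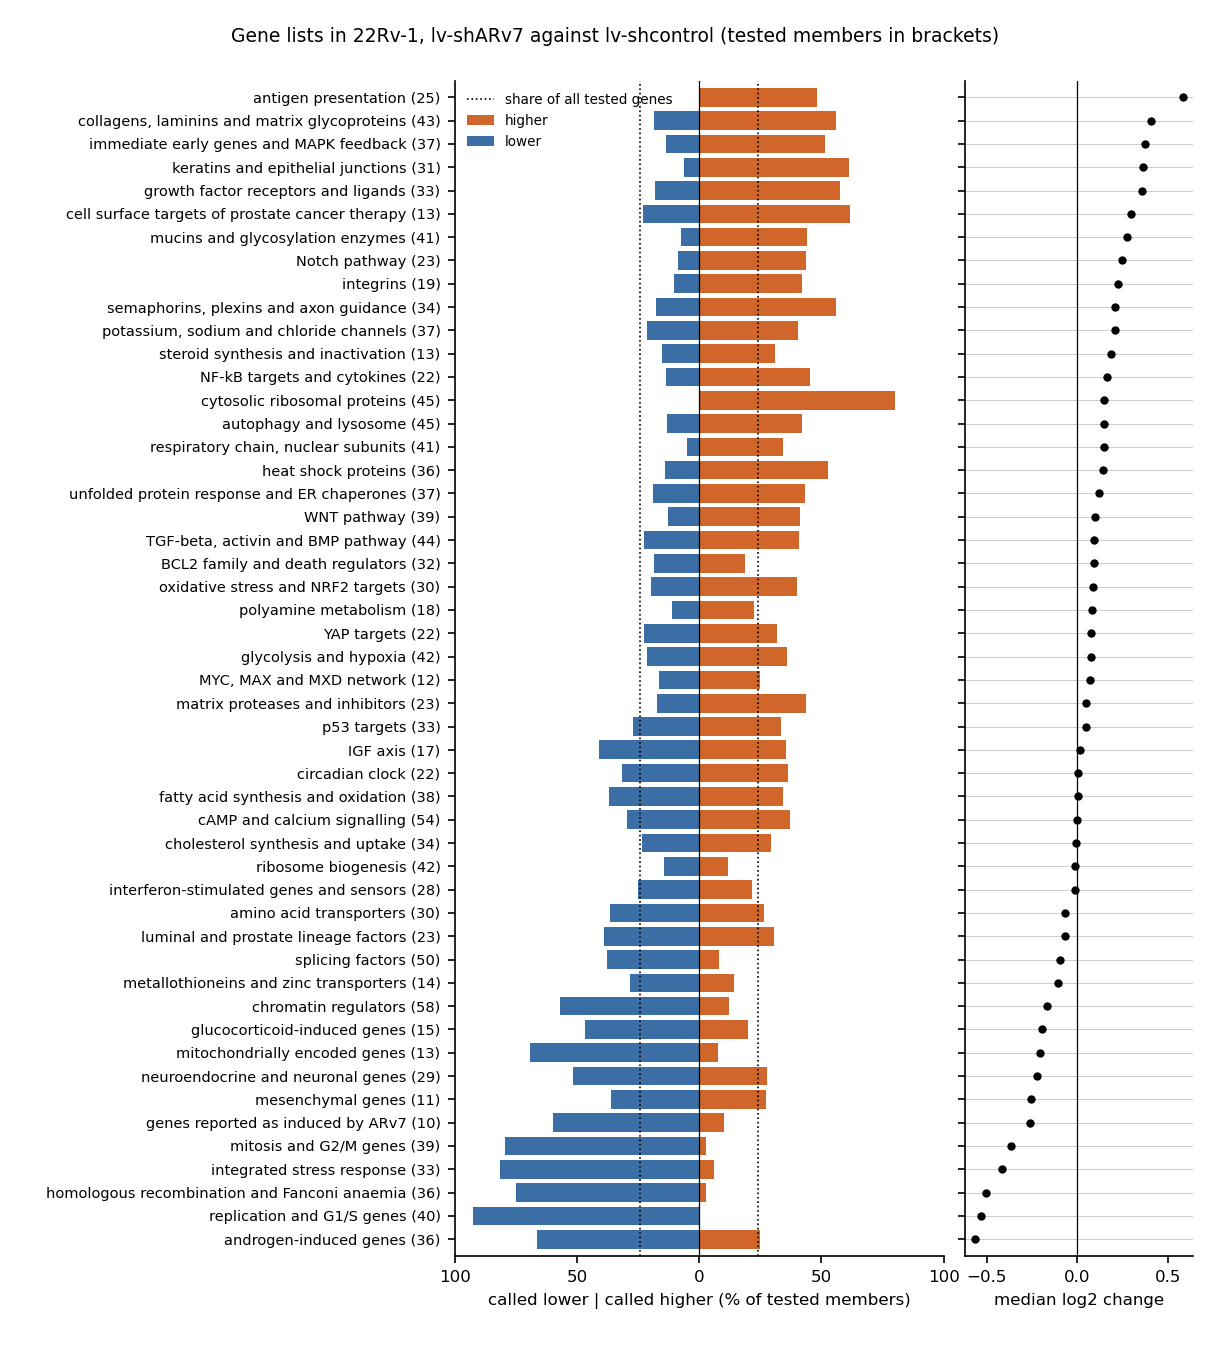
For each of 50 gene lists (tested members in brackets), the bars show the percentage of tested members that rose (right) and fell (left), and the points on the right give the list's median log2 change. Dotted lines mark the share of all 13459 tested genes, 23.9% higher and 24.1% lower; antigen presentation stands at the upper end with a median of 0.58 and androgen-induced genes at the lower end with -0.56.

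Changed genes lay on all chromosomes, and among the autosomes and X falls outnumbered rises by the widest margins on chromosomes 5 and 7. On chromosome 5, 120 of 624 tested genes rose (19.2%) and 195 fell (31.25%), and on chromosome 7, 139 of 651 rose (21.35%) and 186 fell (28.6%). On the other autosomes and X the share of rises lay between 20.61% and 28.45% and that of falls between 20.1% and 28.9%.

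In C4-2 cells the design runs the other way, with ARv7 added. In a fit of all 12 libraries, 6030 genes changed in 22Rv-1 and 7988 in C4-2, and 3715 in both. Of those, 1996 moved in opposite directions when ARv7 was lost and when it was gained (33.1% of the 22Rv-1 calls and 24.99% of the C4-2 calls), and 1719 in the same direction (28.51% and 21.52%). For 7211 of 14235 genes (50.7%) the response to high against low ARv7 differed between the lines by the interaction test. With total counts in place of TMM factors, 28.0% of these differences were positive (22Rv-1 minus C4-2), against 46.0% with them.

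Of the 20 genes with the largest changes in 22Rv-1, and among those with at least 20 counts in C4-2, MAF came nearest to a mirrored response. It fell by 2.98 on the log2 scale on loss of ARv7 and rose by 2.72 on its gain (difference 0.26, edgeR adjusted p = 0.0995). TMEFF2 rose by 4.46 and SLC38A4 by 2.68 in C4-2 with ARv7, and each differed from its 22Rv-1 response by less than 1 on the log2 scale, although the difference passed the test. IGFBP3 rose in both settings, by 4.17 on loss in 22Rv-1 and by 0.72 on gain in C4-2. PTGS2 had 15 counts in all 6 C4-2 libraries and INHBA 0, so C4-2 offers almost no level against which to set them.

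**Figure D5:**
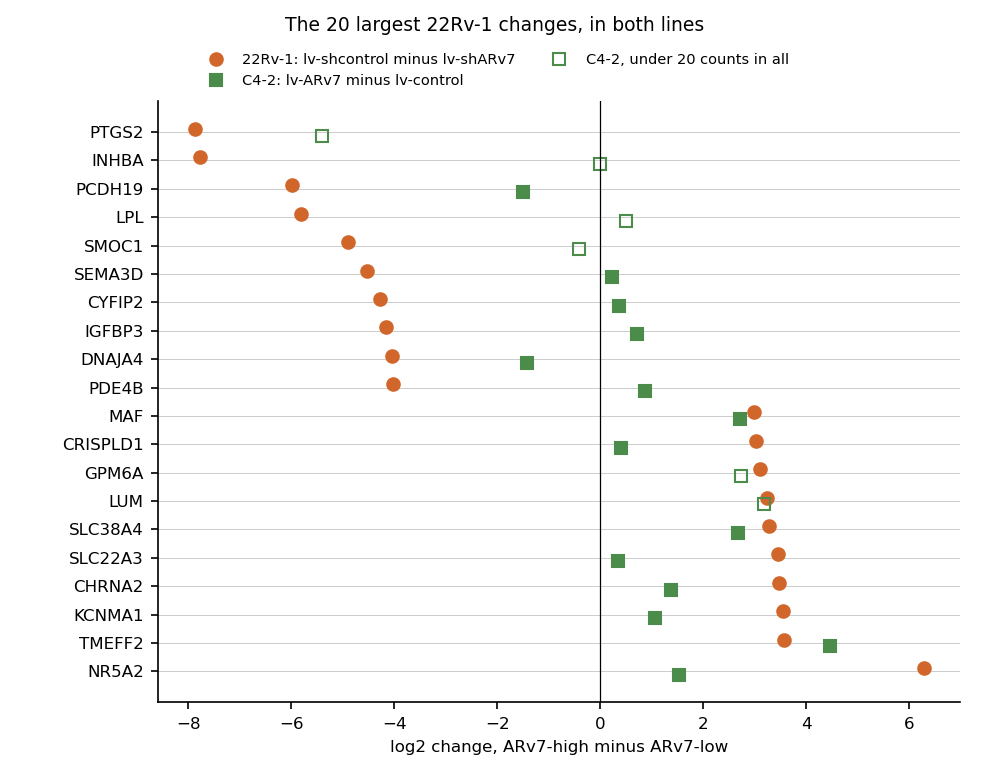
Log2 change of high against low ARv7 for the 20 genes, control minus depleted in 22Rv-1 (circles) and ARv7 minus control in C4-2 (squares, open where under 20 counts were found in all 6 C4-2 libraries). MAF, TMEFF2 and SLC38A4 lie on the same side and at like size in both lines, whereas IGFBP3 and CYFIP2 lie on opposite sides of 0. PDE4B and SEMA3D do so too, but their changes in C4-2 did not pass the test (edgeR adjusted p = 0.116 and 0.786).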

How the data were processed

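Per the labels' protocols, RNA-seq libraries of 12 samples were read on a NovaSeq, with Cutadapt 2.7 used for trimming. The authors deposited 1 table of raw read counts per gene and 1 of FPKM values (fragments scaled by gene length and library size), per the file headers. Not given in the sources used here: aligner, counting tool, strand use and annotation. The submitters' processing notes name hg18, but 19869 of 19876 gene identifiers shared with GENCODE 29 lay within 10000 bases of their GRCh38 position. A single line with no gene identifier was left out.

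Groups were taken from sample titles. Counts were filtered with filterByExpr, scaled by TMM and tested with edgeR 4.0.16 (quasi-likelihood F-test, Benjamini-Hochberg threshold 0.05) in R 4.3.3, and the procedure was tested on simulated data. Named genes were FKBP5, KLK3, IGFBP3 and FN1, the 10 largest rises and 10 largest falls (mean of at least 5 CPM, groups apart), genes that crossed 1 and 5 CPM, and per list up to 4 members with the largest change plus called members against the list's majority. Core pathway genes were also named. The targeted gene and a few genes that these rules name are not reported here. The members and the 50 lists were chosen with earlier results of these data known. Ratios of low counts carry exact intervals that cover counting error only. Alternatives were DESeq2 1.42.0, other scaling and filters, a replicate block, glmTreat, all 12 libraries in 1 fit, limma 3.58.1 on log2 of the deposited FPKM (pseudocounts 1 and 0.1, mean of at least 1), and each library left out. Replicates were no copies of each other (chi-square per degree of freedom 2.12 to 4.77).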

Additional observations from a re-analysis of the deposited data

Results flagged for a closer look

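For 15 of the 20 genes with the largest changes in 22Rv-1, the response to high against low ARv7 differed between the lines. The test was edgeR's interaction test, which called 50.7% of all genes tested (values are 22Rv-1 minus C4-2 on the log2 scale). Among genes that rose on loss of ARv7 in 22Rv-1, the difference was -6.32 for LPL, -4.89 for IGFBP3, -4.89 for PDE4B, -4.77 for SEMA3D, -4.64 for CYFIP2, -4.48 for PCDH19, -4.48 for SMOC1 and -2.62 for DNAJA4. Of these, LPL had 10 counts, SMOC1 7 and SEMA3D 20 in all 6 C4-2 libraries. Among genes that fell, it was 4.75 for NR5A2, 3.10 for SLC22A3, 2.63 for CRISPLD1, 2.48 for KCNMA1, 2.11 for CHRNA2, 0.601 for SLC38A4 and -0.893 for TMEFF2. TMEFF2 thus responded more in C4-2 and the other 6 fallers more in 22Rv-1. The 20 genes were chosen by their 22Rv-1 change, which the interaction test uses again. That choice favours a called difference and a larger response in 22Rv-1.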

How the results depend on the processing

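None of the 411 named genes that passed the test changed sign under any alternative run, but the balance of rises and falls over all genes did turn: falls were the more numerous at first (49.8% rises), and rises with total counts (58.5%), with limma on FPKM values (56.4%), past 1.2-fold (55.2%), without the count filter (50.6%) and with all 12 libraries in 1 fit (50.2%). Past a fold of 1.2 (glmTreat), 2862 genes changed, 1581 higher and 1281 lower. Changes of 2-fold or more numbered 284 higher and 165 lower with a mean of at least 5 CPM, 155 and 82 with limma on log2(FPKM + 1), and 304 and 146 with log2(FPKM + 0.1); both limma fits tested 11316 genes. Leaving out 1 library gave 5793 to 6532 changed genes, 2833 to 3213 higher and 2908 to 3319 lower, with 761 to 846 rises and 276 to 292 falls of 2-fold or more. The difference between lines was called for 6752 to 7308 genes with 1 library left out. It was called for 6424 with a mean of at least 5 CPM and for 7385 with total counts. Replicate numbers did not pair the samples (r = -0.0962, 0.0176 and -0.124 over 11115 genes). With the replicate block 6203 genes changed (3090 higher and 3113 lower), 748 and 268 of them by 2-fold or more, and the difference was called for 6863. DESeq2 called 5881, of which 5871 were shared. Over all alternatives, calls of named genes were kept in 6354 cases and lost in 512. Counts per list stayed within 1.5 times in 1547 cases and moved further in 153, and counts over all genes in 94 and 9; the cause was not tested.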
